A study of Homo sapiens with 24 samples.

Results

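RNA-seq of K562 cells 14 days into CRISPR interference was compared between the guide sgDDX3, which is aimed at the helicase gene DDX3X, and the control guide sgGal4. K562 is an established human chronic myelogenous leukaemia line that carries the BCR-ABL1 fusion and expresses erythroid genes, and these cells also carry an interference system that doxycycline (50 ng/ml) induces. The libraries were those labelled as RNA at day 14, which gave 4 of the 24 libraries of the series: 2 with sgDDX3 and 2 with sgGal4. The labels give the same doxycycline treatment to both guides, name 1 guide against DDX3X, and do not say that the replicates were separate cultures, so the p-values reflect library-to-library spread alone, which may be technical. RNA came from the cytosol, taken with a Triton lysate and depleted of ribosomal RNA, so nuclear RNA is under-represented. RNA of days 0 and 3 and ribosome footprints of day 14 (4 libraries each) are used below where they bear on the day 14 values.

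DDX3X is an ATP-dependent DEAD-box RNA helicase encoded on the X chromosome. It binds initiation factors and the small ribosomal subunit and is best known for helping ribosomes start on mRNAs whose 5′ leaders are structured. In blood cancers and medulloblastoma the gene is recurrently mutated, and DDX3X has also been linked to Wnt signalling through casein kinase 1, to stress granules and to antiviral sensing. The comparison asks which cytosolic RNAs differ when the guide has been active for the longer of the study's times.

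The day 14 RNA libraries held 11706866 and 11070695 counts with sgDDX3, and 10382024 and 30283898 counts with sgGal4. Values are CPM (counts per 1e+06 counts of a library) after scaling with TMM factors (trimmed mean of M values), given as replicate 1 and replicate 2, and CPM is not corrected for gene length. A count of 0 allows up to 3 counts, which is 0.256 and 0.271 CPM with sgDDX3 and 0.289 and 0.0991 CPM with sgGal4, for counting error only. The cells carried the erythroid-leukaemia signature: 12 K562 genes summed to 1476 and 1410 CPM with sgDDX3, against 1361 and 1375 CPM with sgGal4. Markers of other cells were lower, and 12 megakaryocytic genes summed to 22.9 and 26.8 CPM with sgDDX3, against 27.3 and 25.3 CPM with sgGal4. The sums of 12 myeloid genes were 166 and 187 CPM with sgDDX3, against 215 and 228 CPM with sgGal4, those of 8 lymphoid genes 44.8 and 41.3 against 55.8 and 53.9 CPM, and those of 8 non-blood genes 24.8 and 25.4 against 31.5 and 30.2 CPM, in the same order of guides. These last 3 sums were thus lower with sgDDX3 in both libraries, and their part in the results below was not tested. Among these, 5 megakaryocytic genes (FLI1, GP1BB, PF4, PPBP, SELP), MPO, CD2, MS4A1, CDH5, COL3A1 and KRT5 had no count in any of the 4 libraries.

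The replicates with sgDDX3 stood further apart than those with sgGal4. Over 9993 genes the log2 difference between replicates had an SD of 0.228 with sgDDX3, against 0.129 with sgGal4, and at day 0 the values were 0.12 and 0.121. Mitochondrial genes took 5.40% and 7.19% of the counts with sgDDX3, against 6.0% and 6.68% with sgGal4. Results that rest on 1 library are therefore given with and without it. In the text a gene rose or fell when its adjusted p was under 0.05 in the edgeR quasi-likelihood test of sgDDX3 over sgGal4 at day 14, so these words compare guides and not times. Log2 differences carry their standard error after ±.

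The targeted gene was lower with its guide, by less than at day 3. DDX3X (chrX:41333308-41364472 of GRCh38.p14) was at 134 and 101 CPM with sgDDX3, against 201 and 187 CPM with sgGal4 at day 14. The 4 values did not overlap, and the 2 libraries with sgDDX3 differed from each other more than those with sgGal4. This was 60.6% of the control mean (69.0% in replicate 1 and 52.2% in replicate 2; log2 difference -0.72 ± 0.10, adjusted p = 4.0e-05). DDX3X stood at 86.3% of the control at day 0 and at 20.2% at day 3. The log2 difference was 1.57 ± 0.14 less negative at day 14 than at day 3 (adjusted p = 7.2e-06). Footprints on DDX3X at day 14 were at 109 and 101 CPM with sgDDX3, against 154 and 167 CPM with sgGal4 (log2 difference -0.61 ± 0.11, adjusted p = 0.00928), a call lost without sgDDX3 replicate 2. In a population of cells, less DDX3X in every cell and a mixture of cells with and without the knockdown cannot be told apart.

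**Figure D1:**
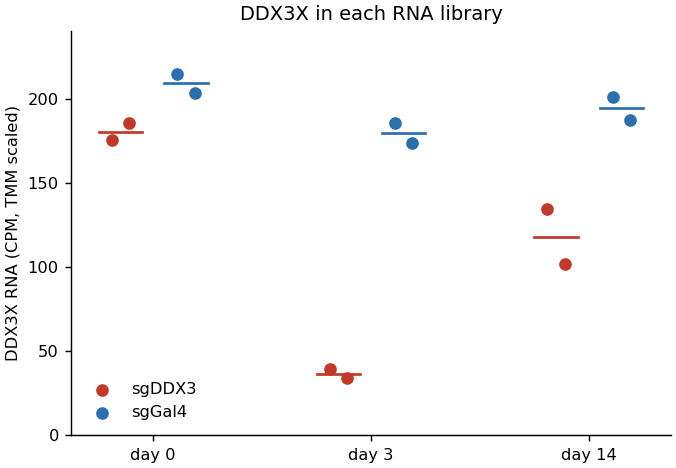
DDX3X RNA in each of the 12 RNA libraries (y axis: scaled CPM) by day (x axis), with sgDDX3 in red left of sgGal4 in blue; points are libraries and lines are group means. At day 14 the sgDDX3 libraries (134 and 101 CPM) lie between their day 3 level and the sgGal4 libraries (201 and 187 CPM).

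CRISPR interference acts at a promoter, so the sequence before the first of the 3 transcription starts that RefSeq gives for DDX3X is shown. It runs 5′ to 3′ on the + strand of GRCh38.p14 at chrX:41333058-41333307, ends 1 base before the start, and is 72.8% G and C.
DDX3X promoter: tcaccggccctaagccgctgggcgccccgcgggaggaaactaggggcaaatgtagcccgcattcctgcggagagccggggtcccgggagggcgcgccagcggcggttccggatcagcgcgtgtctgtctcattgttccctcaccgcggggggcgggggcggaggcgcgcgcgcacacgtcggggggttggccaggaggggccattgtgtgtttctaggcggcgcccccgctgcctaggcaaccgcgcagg
The position of the guide within or near this window is not given in the sources used here.
Of the genes beside DDX3X, CASK, a scaffold kinase gene 3′ of it, was at 13.3 and 13 CPM with sgDDX3, against 6.44 and 8.58 CPM with sgGal4. The groups did not overlap (log2 difference 0.75 ± 0.15, adjusted p = 0.00131). USP9X, the deubiquitinase gene on the other side, was at 150.1 and 173 CPM with sgDDX3, against 131 and 138 CPM with sgGal4 (log2 difference 0.26 ± 0.08, adjusted p = 0.0271), a call lost without sgDDX3 replicate 2 or when either sgGal4 replicate was left out, and with the day 14 libraries alone. MED14, a Mediator subunit, was at 40.4 and 54.3 CPM with sgDDX3, against 47.0 and 51.0 CPM with sgGal4, and its 4 values overlapped.

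At day 14, 1543 of 18287 tested genes rose (8.44%) and 1131 fell (6.18%). The median log2 difference of all tested genes was -0.01. Most differences were small: the median size among the 2674 genes was 0.43, and 208 rose and 103 fell by at least 1 on the log2 scale. The number depended on each library: 2035 genes passed without sgDDX3 replicate 1, 3201 without sgDDX3 replicate 2, 1556 without sgGal4 replicate 1 and 1076 without sgGal4 replicate 2, and these shared 60%, 78%, 56% and 39% of the 2674 genes. With only the day 14 libraries in the fit 1495 passed. In 51.9% of all tested genes the 2 groups did not overlap, so that non-overlap alone says little with 2 libraries a group. The list members named below were mostly those with the smallest p, a choice that favours groups without overlap. Their non-overlap therefore describes the values and adds no support. The differences were a little larger in sgDDX3 replicate 1, with a median of 0.47 for genes that rose and -0.46 for genes that fell, against 0.42 and -0.38 in replicate 2. DDX3X itself was less reduced in replicate 1. Between day 0 and day 14, 2971 genes changed with sgGal4 and 4791 with sgDDX3, at an adjusted p under 0.05 in the same edgeR fit. A difference between guides at day 14 can therefore hold a change over time with either guide.

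**Figure D2:**
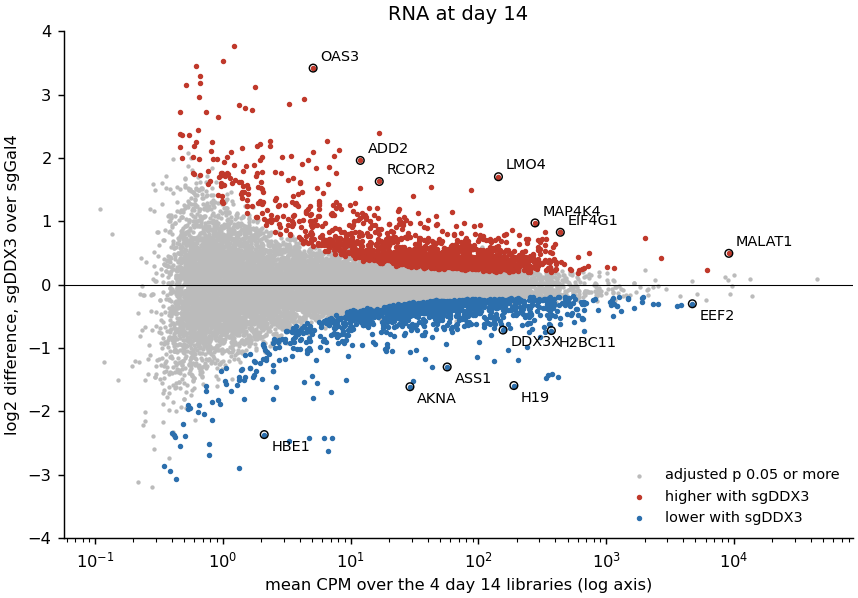
Log2 difference of sgDDX3 over sgGal4 at day 14 (y axis) against the mean CPM of the 4 day 14 libraries (x axis, log scale) for every tested gene; red genes rose and blue genes fell at an adjusted p under 0.05, and grey genes did not pass. Some genes named in the text are circled, and 1 gene lies outside the plotted range.

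The highest and lowest genes were taken from genes that passed, of at least 10 CPM, whose groups did not overlap. Among those reported, the genes with the largest rises had roles in the red cell skeleton, in transcription and in membranes. ADD2, beta-adducin of the red cell membrane skeleton, was at 21.3 and 16.8 CPM with sgDDX3, against 4.33 and 5.19 CPM with sgGal4 (log2 difference 1.96 ± 0.17, adjusted p = 2.9e-07). LMO4, a LIM-only adaptor of transcription factor complexes, was at 205 and 234 CPM with sgDDX3, against 68.1 and 67.0 CPM with sgGal4 (log2 difference 1.70 ± 0.08, adjusted p = 1.2e-11). RCOR2, a corepressor of the CoREST family that binds the demethylase LSD1, was at 28.4 and 22.2 CPM with sgDDX3, against 8.56 and 7.99 CPM with sgGal4 (log2 difference 1.63 ± 0.15, adjusted p = 4.0e-07). In each of the 3 genes both sgDDX3 libraries lay far above both sgGal4 libraries. LMO4 was also the most tightly replicated of them, with its 2 sgGal4 libraries almost equal.

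ZNF628, a zinc finger gene, was at 69.3 and 58.1 CPM with sgDDX3, against 22 and 21.8 CPM with sgGal4 (log2 difference 1.54 ± 0.10, adjusted p = 5.5e-09). TSPOAP1, which encodes a binding partner of the mitochondrial translocator protein, was at 19.9 and 14.8 CPM with sgDDX3, against 6.54 and 5.82 CPM with sgGal4 (log2 difference 1.52 ± 0.18, adjusted p = 1.2e-05). SNHG12, a host of small nucleolar RNAs, was at 51.2 and 37.4 CPM with sgDDX3, against 17.6 and 16.5 CPM with sgGal4 (log2 difference 1.39 ± 0.15, adjusted p = 1.8e-06). For TSPOAP1 and SNHG12 sgDDX3 replicate 1 was higher than replicate 2, and both exceeded the control. HLA-C, a class I antigen-presenting molecule whose reads can be shared with related HLA genes, was at 33.4 and 32.8 CPM with sgDDX3, against 14.0 and 14.7 CPM with sgGal4 (log2 difference 1.19 ± 0.11, adjusted p = 7.0e-07). RRBP1, a ribosome-binding protein of the endoplasmic reticulum, was at 96.1 and 76.5 CPM with sgDDX3, against 37.1 and 40.3 CPM with sgGal4 (log2 difference 1.15 ± 0.12, adjusted p = 2.0e-06). DYSF, dysferlin of membrane repair, was at 48.7 and 43.0 CPM with sgDDX3, against 21.5 and 20.6 CPM with sgGal4 (log2 difference 1.13 ± 0.10, adjusted p = 2.9e-07). The groups were apart in all 3, as the choice of genes required. The other highest genes were the palmitoyltransferase gene ZDHHC14 (1.29), NPTXR (1.20), CDR2L (1.20), RTL6 (1.17), PPFIA4 (1.16) and the adhesion gene AMIGO1 (1.13), all log2 differences.

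Among genes of at least 10 CPM, those with the largest falls included an imprinted RNA, surface receptors and secreted proteins. H19, an imprinted non-coding RNA of fetal tissues, was at 95.4 and 93.2 CPM with sgDDX3, against 292 and 278 CPM with sgGal4 (log2 difference -1.60 ± 0.07, adjusted p = 1.2e-11). The 2 libraries of each guide nearly coincided. AKNA, an AT-hook protein of centrosomes and transcription, was at 9.94 and 19.1 CPM with sgDDX3, against 41.3 and 46.2 CPM with sgGal4 (log2 difference -1.61 ± 0.24, adjusted p = 9.9e-05). FCGR2A, a receptor for antibody Fc parts with near-identical relatives, was at 12.8 and 19.1 CPM with sgDDX3, against 42.1 and 48.6 CPM with sgGal4 (log2 difference -1.53 ± 0.15, adjusted p = 1.1e-06). UNC5B, a netrin receptor, was at 20.8 and 30.0 CPM with sgDDX3, against 59 and 64.9 CPM with sgGal4 (log2 difference -1.30 ± 0.17, adjusted p = 1.9e-05). In these 3 genes replicate 1 of sgDDX3 was the lowest library and replicate 2 lay between it and the controls. Mean CPM of UNC5B at day 0 and day 14 was 25.6 and 62.0 with sgGal4, and 28.0 and 25.4 with sgDDX3. For H19 the means were 252 and 285 with sgGal4, and 223 and 94.3 with sgDDX3.

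TMSB4X, the actin-sequestering peptide thymosin beta-4, was at 100.1 and 124 CPM with sgDDX3, against 213 and 242 CPM with sgGal4 (log2 difference -1.03 ± 0.09, adjusted p = 3.0e-07). IGFBP2, a binding protein of insulin-like growth factors, was at 51.3 and 70.6 CPM with sgDDX3, against 136 and 133 CPM with sgGal4 (log2 difference -1.14 ± 0.11, adjusted p = 1.1e-06). TF, transferrin, was at 17.2 and 30.1 CPM with sgDDX3, against 52.8 and 53.8 CPM with sgGal4 (log2 difference -1.18 ± 0.18, adjusted p = 0.000156). The groups were again apart in each, as the choice of genes required. The other lowest nuclear genes were ASS1 (-1.30, described below), MUC4 (-1.06), EFHD1 (-1.05), ANXA3 (-1.04), EHD2 (-1.03) and SOX5 (-1.01), as log2 differences. Also among the lowest were both ribosomal RNAs of the mitochondrion, MT-RNR1 (-1.21 ± 0.24) and MT-RNR2 (-1.20 ± 0.26), with calls lost in DESeq2. MT-RNR1 had means of 37.1 CPM at day 0 and 184 CPM at day 14 with sgGal4, and of 61.3 and 79.7 CPM with sgDDX3. Ribosomal RNA was depleted before sequencing: the nuclear 5.8S copy RNA5-8SN1, chosen after its values were seen, differed by -2.42 at day 14 and by 1.58 at day 3, and MT-RNR1 by 0.70 at day 0, and the part of depletion in these values was not tested.

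**Figure D3:**
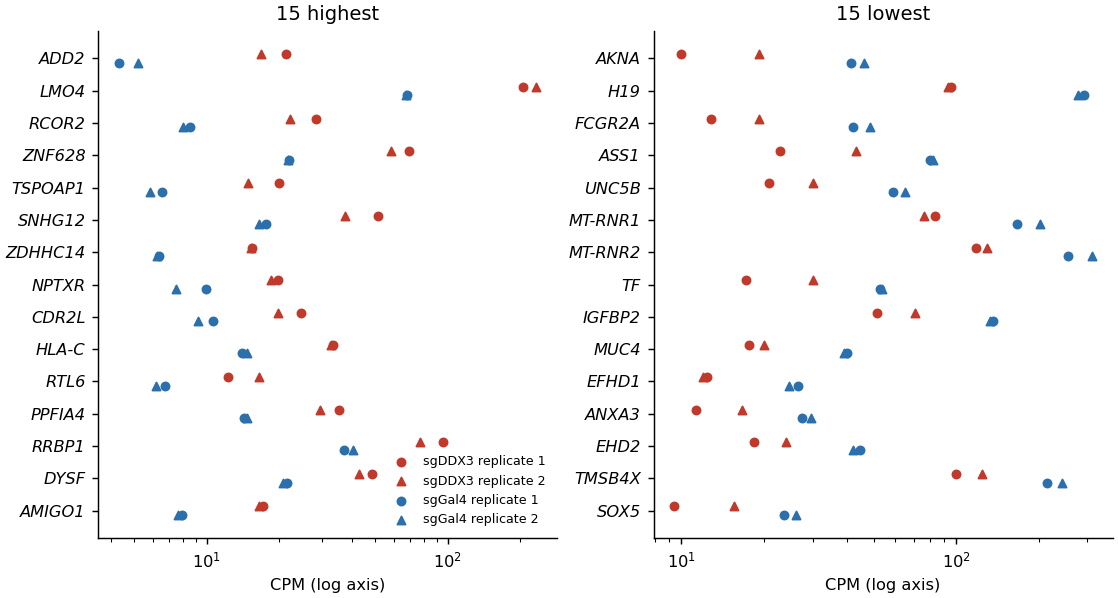
CPM (x axes, log scale) of the 15 genes with the highest (left) and the 15 with the lowest (right) log2 difference at day 14 among reported genes of at least 10 CPM; circles are replicate 1 and triangles replicate 2, sgDDX3 in red above sgGal4 in blue. The choice of genes required the red points to lie on 1 side of the blue points.

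Measured by CPM gained rather than by ratio, abundant RNAs led. The nuclear-retained non-coding RNA MALAT1 was at 10971 and 10372 CPM with sgDDX3, against 7910.2 and 7261 CPM with sgGal4 (log2 difference 0.49 ± 0.07, adjusted p = 3.6e-05). Of 8 tested long non-coding RNAs in a list of nuclear ones it was the 1 that rose, and 0 fell (12.5% and 0%, beside 8.44% and 6.18% of all tested genes). Their median was -0.12. The part of nuclear RNA in each lysate was not tested. MT-ND2, a mitochondrially encoded subunit of complex I, was at 2155 and 2906 CPM with sgDDX3, against 1373 and 1673 CPM with sgGal4 (log2 difference 0.73 ± 0.12, adjusted p = 0.000314), and its nuclear copy MTND2P28, which can share its reads, rose by 0.83, or by 0.50 without sgDDX3 replicate 2. APOE, apolipoprotein E, was at 933 and 778 CPM with sgDDX3, against 614 and 602 CPM with sgGal4 (log2 difference 0.49 ± 0.08, adjusted p = 0.000159). All sgDDX3 libraries exceeded all sgGal4 libraries in MALAT1, MT-ND2, MTND2P28 and APOE, because non-overlap was required in this choice too. AP3D1, a subunit of the AP-3 vesicle adaptor, was at 428 and 429 CPM with sgDDX3, against 234 and 246 CPM with sgGal4 (log2 difference 0.84 ± 0.07, adjusted p = 1.4e-07). Among RNAs that lost most CPM, EEF2, the translocation factor of elongation, was at 4061 and 4405 CPM with sgDDX3, against 5135 and 5314 CPM with sgGal4 (log2 difference -0.30 ± 0.06, adjusted p = 0.000969). HSP90AB1, a cytosolic chaperone, was at 1473 and 1437 CPM with sgDDX3, against 1914 and 1836 CPM with sgGal4 (log2 difference -0.37 ± 0.06, adjusted p = 0.000159). The cytoplasmic actins ACTB (-0.31 ± 0.06, adjusted p = 0.00113) and ACTG1 (-0.42 ± 0.07, adjusted p = 0.000213) fell too.

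Many genes of the response to stress and amino acid shortage, in which the transcription factor ATF4 is a known regulator, fell with sgDDX3. The activity of ATF4 was not measured. Of 21 endoplasmic reticulum chaperones and unfolded protein response genes, described below, 7 rose and 1 fell. Of 20 tested stress regulators 0 rose and 11 fell, beside 8.44% and 6.18% of all tested genes, with a median log2 difference of -0.45. ATF4 itself was at 521 and 626 CPM with sgDDX3, against 762 and 761 CPM with sgGal4 (log2 difference -0.41 ± 0.07, adjusted p = 0.000559). TRIB3, a pseudokinase that ATF4 induces, was at 132 and 193 CPM with sgDDX3, against 313 and 327 CPM with sgGal4 (log2 difference -0.98 ± 0.13, adjusted p = 2.2e-05). The growth factor GDF15 was at 42.9 and 49.3 CPM with sgDDX3, against 81.2 and 74.1 CPM with sgGal4 (log2 difference -0.75 ± 0.09, adjusted p = 1.6e-05). In ATF4 and TRIB3 sgDDX3 replicate 1 was lower than replicate 2, and both lay under the controls, which agreed closely. The secreted glycoprotein gene STC2 fell by 0.83 and DDIT4, a brake on mTORC1, by 0.62 (by 0.41 without sgDDX3 replicate 1). The median of the list was -0.32 without sgDDX3 replicate 1 and -0.71 without replicate 2, and 16 members fell in that last fit.

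Genes of enzymes that make amino acids fell in part as well. Serine and one-carbon genes rose in 0% and fell in 63.6%, and those for asparagine, proline and arginine in 0% and 57.1%. The shares of all tested genes were 8.44% and 6.18%. Of 11 serine and one-carbon genes 0 rose and 7 fell (median -0.39), 4 without sgDDX3 replicate 1 and 3 without sgGal4 replicate 2. PHGDH, the entry enzyme of serine synthesis, was at 142 and 199.7 CPM with sgDDX3, against 274 and 261 CPM with sgGal4 (log2 difference -0.65 ± 0.11, adjusted p = 0.000296), and its log2 difference was -0.42 without sgDDX3 replicate 1. SHMT2, which splits serine in mitochondria, was at 229 and 277 CPM with sgDDX3, against 405 and 399 CPM with sgGal4 (log2 difference -0.67 ± 0.08, adjusted p = 1.7e-05). The groups did not overlap in either. Of 14 genes for asparagine, proline and arginine 0 rose and 8 fell (median -0.32). ASS1, argininosuccinate synthase of arginine synthesis, was at 22.8 and 43.2 CPM with sgDDX3, against 79.9 and 82.1 CPM with sgGal4 (log2 difference -1.30 ± 0.20, adjusted p = 0.00012), with the wider spread in sgDDX3. PCK2, mitochondrial phosphoenolpyruvate carboxykinase, was at 159 and 211 CPM with sgDDX3, against 312 and 309 CPM with sgGal4 (log2 difference -0.75 ± 0.09, adjusted p = 1.7e-05), and GOT1, an aspartate aminotransferase, fell by 0.53. Of 9 genes for cystine and glutathione 1 rose and 2 fell (11.1% and 22.2%, beside 8.44% and 6.18% of all tested genes, median -0.12). SLC7A11, the cystine importer, fell by 0.70 (by 0.44 without sgDDX3 replicate 1), CTH, which makes cysteine, fell by 0.67 (by 0.34 without sgDDX3 replicate 1 and 1.11 without sgDDX3 replicate 2), and GSR, which reduces glutathione, rose by 0.34 (adjusted p = 0.073 without sgGal4 replicate 2).

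Transport and charging of amino acids showed the same direction. Transporters rose in 7.69% and fell in 61.5%, and cytosolic tRNA synthetases in 0% and 55%. The shares of all tested genes were 8.44% and 6.18%. Of 13 transporters 1 rose and 8 fell (median -0.42); the 1 did not pass without sgDDX3 replicate 1 or sgGal4 replicate 2. SLC7A5, the leucine importer, was at 459 and 548 CPM with sgDDX3, against 720.2 and 689 CPM with sgGal4 (log2 difference -0.48 ± 0.07, adjusted p = 0.000118), and its partner chain SLC3A2 was at 193 and 210.2 CPM with sgDDX3, against 281 and 280.4 CPM with sgGal4 (log2 difference -0.48 ± 0.07, adjusted p = 0.000106). The glutamine importer SLC1A5 was at 313 and 308 CPM with sgDDX3, against 423 and 411 CPM with sgGal4 (log2 difference -0.42 ± 0.06, adjusted p = 0.000126). Each control library exceeded each sgDDX3 library for these genes. Of 20 cytosolic tRNA synthetases 0 rose and 11 fell (median -0.25), 6 without sgGal4 replicate 2 and 7 with the day 14 libraries alone. The methionine enzyme MARS1 was at 338 and 349.8 CPM with sgDDX3, against 536 and 529 CPM with sgGal4 (log2 difference -0.63 ± 0.06, adjusted p = 1.3e-06), and the tryptophan enzyme WARS1 at 167 and 234 CPM with sgDDX3, against 314 and 341 CPM with sgGal4 (log2 difference -0.71 ± 0.11, adjusted p = 9.2e-05). Set beside day 0, the median stress regulator was 0.33 higher at day 14 with sgGal4 and stood at -0.21 with sgDDX3. The same medians were 0.31 and -0.14 for serine and one-carbon genes, and 0.26 and -0.24 for transporters. They were 0.17 and -0.15 for tRNA synthetases, and 0.18 and -0.05 for asparagine, proline and arginine. For cystine and glutathione they were -0.02 and -0.10. The day 14 difference between guides holds the changes with both guides.

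The promoters of these genes can hold the sequence TGATGNAA, the letters that ATF4 with a C/EBP partner is known to bind. Over all genes of the 6 lists, 73 of 90 had a promoter in the RefSeq table (250 bases before the start to 50 after it), and 21 of the 73 (28.8%) held TGATGNAA on either strand, against 4.46% of all 27305 promoters. A match is a description of the letters and not a binding site. The windows below, 60 bases each, 5′ to 3′ in the sense of the gene on GRCh38.p14, hold it in capitals, as its reverse complement in GOT1 and CHAC1. They belong to genes that fell, with GOT1 at chr10:99430789-99430848 (- strand), SLC1A5 at chr19:46784878-46784937 (- strand), ATF3 at chr1:212565190-212565249 (+ strand) and CHAC1 at chr15:40953236-40953295 (+ strand).
GOT1: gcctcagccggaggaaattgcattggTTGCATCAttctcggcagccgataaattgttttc
SLC1A5: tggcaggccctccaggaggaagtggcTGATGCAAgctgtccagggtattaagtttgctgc
ATF3: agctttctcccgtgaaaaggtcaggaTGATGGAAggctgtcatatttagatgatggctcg
CHAC1: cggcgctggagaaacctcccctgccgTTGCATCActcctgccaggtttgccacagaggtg
ATF3, a transcription factor induced by ATF4, and CHAC1, an enzyme that degrades glutathione, were chosen for display after their values were seen. They fell by 0.65 each, by 0.42 without sgDDX3 replicate 1.

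Many histone genes that are expressed for DNA replication had lower RNA, in every class, and no tested gene of the replacement histones passed. Of the H2A genes 8 of 10 fell, of H2B 12 of 14, of H4 8 of 11, of H3 3 of 5 and of H1 3 of 5. None rose in any class. The shares that fell were 80%, 85.7%, 72.7%, 60% and 60% in this order, beside 6.18% of all tested genes. Median log2 differences were -0.52 for H2A, -0.39 for H2B, -0.40 for H4, -0.43 for H3 and -0.40 for H1. Without sgGal4 replicate 2 the count of H2B was 7, and without sgGal4 replicate 1 that of H4 was 5. The median of H3 was -0.89 without sgDDX3 replicate 2. H2BC11 was at 261 and 301 CPM with sgDDX3, against 452 and 477 CPM with sgGal4 (log2 difference -0.73 ± 0.07, adjusted p = 1.3e-06). H3C10 was at 226 and 269.9 CPM with sgDDX3, against 405 and 428 CPM with sgGal4 (log2 difference -0.75 ± 0.08, adjusted p = 2.0e-06). H1-2, a linker histone, was at 953 and 935 CPM with sgDDX3, against 1351 and 1313 CPM with sgGal4 (log2 difference -0.50 ± 0.07, adjusted p = 0.000105). The guides did not overlap in these genes, and in H1-2 the replicates agreed closely. H4C3 was at 295 and 286 CPM with sgDDX3, against 417 and 421 CPM with sgGal4 (log2 difference -0.53 ± 0.07, adjusted p = 2.5e-05). Many of these genes are near-identical copies, so reads can be shared between them. In day 14 footprints 0 of 5 H1, 0 of 10 H2A, 1 of 14 H2B, 1 of 5 H3 and 4 of 11 H4 genes fell. Of all genes tested there 1.29% fell. Median footprint differences were -0.17, -0.21, -0.18, -0.07 and -0.27 in this order, nearer to no difference than the RNA medians.

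Replacement histones are for the most part made through the whole cycle from polyadenylated mRNA. Of 7 tested, 0 rose and 0 fell at day 14 in edgeR and in DESeq2, and 1 was lower at an unadjusted p under 0.05. At day 3, 2 of them were lower with sgDDX3, H2AX by 0.39 and H2AZ1 by 0.27 on the log2 scale. At day 14 H2AZ1 was at 296 and 271 CPM with sgDDX3, against 319 and 314 CPM with sgGal4 (log2 difference -0.16 ± 0.07, adjusted p = 0.164). H3-3A was at 245 and 242 CPM with sgDDX3, against 273 and 257 CPM with sgGal4 (log2 difference -0.12 ± 0.07, adjusted p = 0.256). Neither difference passed. Of 10 genes that cut and bind histone mRNA ends 0 rose and 0 fell in edgeR and in DESeq2, 1 was lower at an unadjusted p under 0.05, and 2 fell without sgDDX3 replicate 2, with the nuclease gene CPSF3 at 54.2 and 66.6 CPM with sgDDX3, against 69.4 and 71.6 CPM with sgGal4 (log2 difference -0.23 ± 0.09, adjusted p = 0.104). Library preparation began from RNA depleted of ribosomal RNA, which keeps histone mRNAs without a poly(A) tail.

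Histone promoters of classes other than H4 commonly carry a CCAAT box. All 5 H1, 13 H2A, 16 H2B and 8 H3 promoters of the lists held CCAAT on either strand, as did 3 of 11 H4 promoters and 39.7% of all promoters. Replacement histones, of which none passed, held it in 7 of 9 promoters. Among tested genes with a promoter the shares were 48.4% of those that fell, 39.9% of those that rose and 42.1% of those not called. The box nearest the start is shown in capitals for H2BC11 at chr6:27132842-27132901 (- strand), H3C10 at chr6:27809971-27810030 (+ strand) and H1-2 at chr6:26056494-26056553 (- strand), 5′ to 3′ in the sense of the gene, to set the promoters of the 3 histone genes above side by side.
H2BC11: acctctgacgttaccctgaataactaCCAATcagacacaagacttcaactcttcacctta
H3C10: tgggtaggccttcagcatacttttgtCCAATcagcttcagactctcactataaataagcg
H1-2: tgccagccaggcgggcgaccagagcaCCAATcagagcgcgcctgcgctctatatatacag
In all 3 the letters lie 54 to 80 bases before the start and are followed by CA, and H4C3, which fell by 0.53, belongs to the class where CCAAT is less common.

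Other genes of the cell cycle moved less as a group. The DNA replication genes were near all tested genes, with 8.82% rising and 8.82% falling, beside 8.44% and 6.18%. Of 34 DNA replication genes 3 rose and 3 fell (median -0.08, or -0.04 without sgDDX3 replicate 2), with 5 falling without sgDDX3 replicate 1 and a single one when either sgGal4 replicate was left out. MCM2, a subunit of the replicative helicase, was at 176 and 157 CPM with sgDDX3, against 99.3 and 105 CPM with sgGal4 (log2 difference 0.70 ± 0.12, adjusted p = 0.000369). CHAF1A, the large subunit of the histone chaperone CAF-1, was at 154 and 127 CPM with sgDDX3, against 102 and 98.7 CPM with sgGal4 (log2 difference 0.49 ± 0.09, adjusted p = 0.000744). CDT1, which loads the helicase at origins, was at 190.2 and 189 CPM with sgDDX3, against 294 and 289 CPM with sgGal4 (log2 difference -0.62 ± 0.07, adjusted p = 6.1e-06). MCM2 and CDT1 were thus apart between guides in opposite directions. Mitosis genes rose in 0% and fell in 23.3%, beside 8.44% and 6.18% of all tested genes. Of 30 mitosis genes 0 rose and 7 fell (median -0.19), but the count was 3 without sgDDX3 replicate 1 and 0 without sgGal4 replicate 2, and 2 with the day 14 libraries alone, and 2 rose without sgDDX3 replicate 1.

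Part of the interferon response rose, mostly in genes of low level. Of 23 tested members, of 35 in the list, 10 rose and 0 fell (43.5% and 0%, beside 8.44% and 6.18% of all tested genes). The median was 0.42, or 0.25 with the day 14 libraries alone. The other genes of the list were below the filter on low counts. OAS3, a sensor that makes 2-5A in response to double-stranded RNA, was at 9.0 and 9.59 CPM with sgDDX3, against 0.962 and 0.822 CPM with sgGal4 (log2 difference 3.42 ± 0.33, adjusted p = 8.6e-07). It held few counts with sgGal4 and was about equal in the 2 sgDDX3 libraries. USP18, which removes ISG15, was at 7.22 and 7.78 CPM with sgDDX3, against 4.62 and 3.02 CPM with sgGal4 (log2 difference 1.08 ± 0.22, adjusted p = 0.00194), a call lost without sgGal4 replicate 2. STAT2 was at 58.9 and 56.8 CPM with sgDDX3, against 39.3 and 46.3 CPM with sgGal4 (log2 difference 0.42 ± 0.09, adjusted p = 0.0038), a call lost without sgGal4 replicate 1. The sensor IFIH1 was at 0.764 and 1.72 CPM with sgDDX3, against 0 and 0.164 CPM with sgGal4, so that its control libraries held next to no counts (log2 difference 3.29 ± 0.79, adjusted p = 0.0068, lost without sgDDX3 replicate 2). The count of members that rose was 6 without sgDDX3 replicate 2, 5 without sgGal4 replicate 1 and 4 without sgGal4 replicate 2, 6 in DESeq2 and 4 with the day 14 libraries alone, and 1 fell without sgDDX3 replicate 2.

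The next list joins genes that sense or edit double-stranded RNA with EIF2AK1, EIF2AK3 and EIF2AK4, kinases that double-stranded RNA does not activate. Of its 13 tested genes 7 rose and 0 fell (53.8% and 0%, beside 8.44% and 6.18% of all tested genes, median 0.27). The count was 4 without sgDDX3 replicate 2, 3 without sgGal4 replicate 1 and 4 without sgGal4 replicate 2. ZC3HAV1, an antiviral zinc finger protein, was at 183 and 183 CPM with sgDDX3, against 139 and 146 CPM with sgGal4 (log2 difference 0.36 ± 0.07, adjusted p = 0.00107). EIF2AK4, the kinase GCN2 that senses uncharged tRNA, was at 76.4 and 80.2 CPM with sgDDX3, against 54.9 and 52.5 CPM with sgGal4 (log2 difference 0.55 ± 0.08, adjusted p = 7.4e-05). ADARB1, an RNA-editing deaminase, was at 38.5 and 34.7 CPM with sgDDX3, against 26.1 and 26.8 CPM with sgGal4 (log2 difference 0.47 ± 0.10, adjusted p = 0.00249). In each of these both sgDDX3 libraries exceeded both sgGal4 libraries. The core of the interferon-stimulated response element is a pair of GAAA runs with any 2 bases between them, and the OAS3 promoter has it at 2 places before the start, shown in capitals at chr12:112938305-112938364 (+ strand) and chr12:112938414-112938473 (+ strand).
OAS3 far: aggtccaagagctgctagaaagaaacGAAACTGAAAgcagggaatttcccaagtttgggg
OAS3 near: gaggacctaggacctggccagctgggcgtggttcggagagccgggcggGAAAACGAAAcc
This core was found in 4.38% of all promoters on either strand, and in 18 of 26 promoters of the interferon list. Among tested genes with a promoter it was in 4.47% of those that rose and 4.65% of those that fell. The share was 3.43% of those not called.

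Initiation factors, the partners of DDX3X, moved in both directions. EIF4G1, the scaffold of the cap-binding complex that DDX3X contacts, was at 629 and 491 CPM with sgDDX3, against 309.8 and 322 CPM with sgGal4 (log2 difference 0.83 ± 0.12, adjusted p = 5.6e-05). Its paralogue EIF4G3 was at 116 and 112 CPM with sgDDX3, against 82.3 and 86.9 CPM with sgGal4 (log2 difference 0.42 ± 0.08, adjusted p = 0.000786). EIF4EBP1, the repressor that keeps eIF4E from eIF4G, was at 124 and 145 CPM with sgDDX3, against 216 and 219 CPM with sgGal4 (log2 difference -0.69 ± 0.08, adjusted p = 5.7e-06). EIF4G1 and EIF4EBP1 were apart between guides in opposite directions. Genes of this complex and its repressors rose in 40% and fell in 20%, beside 8.44% and 6.18% of all tested genes. Of the 15 tested genes of this complex and its repressors 6 rose and 3 fell (median 0.17, or 0.07 without sgDDX3 replicate 2); 3 rose without sgGal4 replicate 2, and 1 fell without sgDDX3 replicate 2 or when either sgGal4 replicate was left out. EIF5B, which joins the ribosomal subunits, was at 115 and 89.3 CPM with sgDDX3, against 52.6 and 51.6 CPM with sgGal4 (log2 difference 0.98 ± 0.10, adjusted p = 1.8e-06). Of the 34 other initiation factors it was the 1 that rose, and 10 fell (median -0.11, or -0.07 without sgDDX3 replicate 2), 5 without sgDDX3 replicate 1, 5 without sgGal4 replicate 1 and 3 without sgGal4 replicate 2, while 2 rose without sgDDX3 replicate 2. These other factors rose in 2.94% and fell in 29.4%, beside the same shares of all tested genes. EIF2S2, the beta subunit of eIF2, fell by 0.38 and EIF2A by 0.58.

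Ribosomal protein mRNAs leaned lower. Of 46 genes of the large subunit 0 rose and 15 fell (0% and 32.6%, median -0.16). Of 32 of the small subunit 0 rose and 7 fell (0% and 21.9%, median -0.14). The shares of all tested genes were 8.44% and 6.18%. The sizes and counts of both subunits depended on single libraries, and the count over all tested genes changed in the same fits, as given above. The medians stayed below 0 when any 1 library was left out. They ran from -0.23 to -0.11 for the large subunit and from -0.21 to -0.08 for the small subunit. The large subunit count was 8 without sgDDX3 replicate 1, 28 without sgDDX3 replicate 2, 8 without sgGal4 replicate 1 and 2 without sgGal4 replicate 2. The small subunit count was 18 without sgDDX3 replicate 2 and 1 when either sgGal4 replicate was left out, and 1 rose without sgDDX3 replicate 1. RPSA, at 996 and 1049.8 CPM with sgDDX3, against 1263 and 1261 CPM with sgGal4 (log2 difference -0.30 ± 0.06, adjusted p = 0.00157), and RPL24, at 569.5 and 582 CPM with sgDDX3, against 711 and 707 CPM with sgGal4 (log2 difference -0.30 ± 0.06, adjusted p = 0.00179), fell in every alternative. Of 44 DEAD-box and DEAH-box helicases 7 rose and 1, DDX3X, fell, and 4 rose without sgDDX3 replicate 1 or without sgGal4 replicate 2, and 2 without sgGal4 replicate 1, and 2 fell without sgDDX3 replicate 1. The helicases rose in 15.9% and fell in 2.27%, beside 8.44% and 6.18% of all tested genes. DHX9, a nuclear helicase, was at 229 and 248 CPM with sgDDX3, against 186 and 187 CPM with sgGal4 (log2 difference 0.35 ± 0.07, adjusted p = 0.00107). In ribosome biogenesis UBTF, a factor of ribosomal RNA transcription, was at 160.0 and 148 CPM with sgDDX3, against 89.5 and 97.6 CPM with sgGal4 (log2 difference 0.71 ± 0.08, adjusted p = 5.5e-06), NCL, nucleolin, at 747 and 648 CPM with sgDDX3, against 526 and 502 CPM with sgGal4 (log2 difference 0.44 ± 0.09, adjusted p = 0.00131) and NPM1, nucleophosmin, at 1105 and 1041 CPM with sgDDX3, against 1363 and 1337 CPM with sgGal4 (log2 difference -0.33 ± 0.06, adjusted p = 0.000721). UBTF and NCL rose and NPM1 fell, with no overlap between guides.

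**Figure D4:**
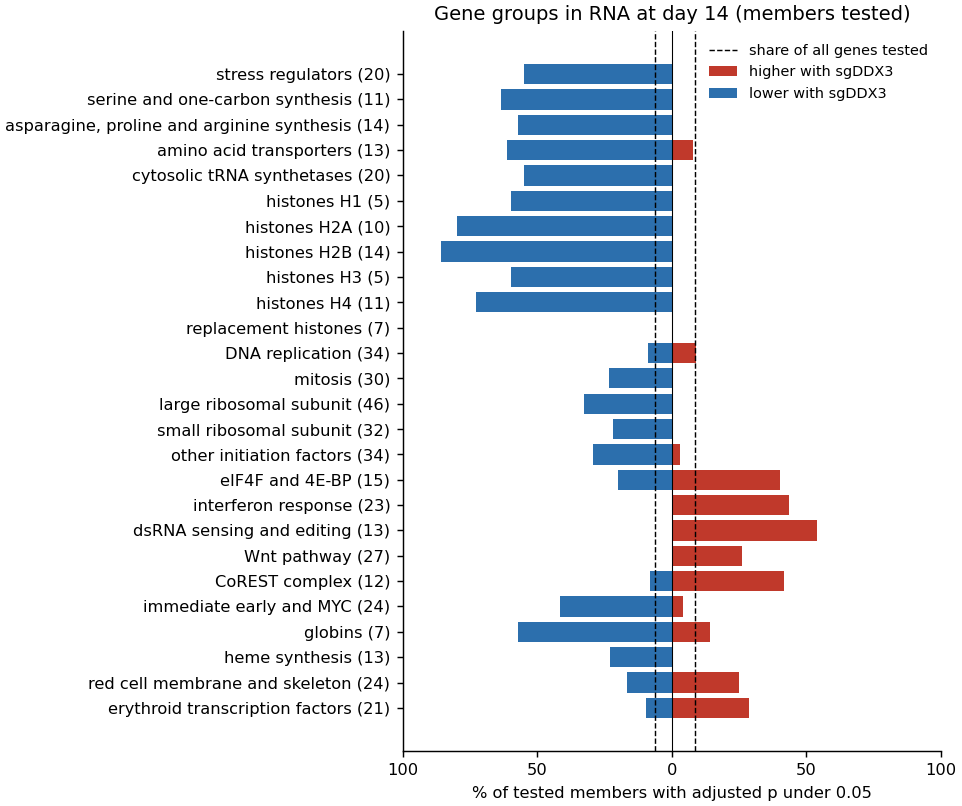
Share of the tested members of 26 gene groups that rose (red, right of 0) or fell (blue, left of 0) with sgDDX3 at day 14 (x axis, % of tested members), with the number tested after each name; dashed lines mark 8.44% and 6.18%, the shares among all tested genes. Amino acid, tRNA synthetase and replication-dependent histone groups extend to the left, and interferon and double-stranded RNA groups to the right. The double-stranded RNA group also holds the kinase genes EIF2AK1, EIF2AK3 and EIF2AK4.

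Erythroid genes did not move as 1 group. Of 7 tested globins 1 rose and 4 fell (14.3% and 57.1%, beside 8.44% and 6.18% of all tested genes, median -0.59). HBA1, alpha-globin, was at 22.2 and 17.7 CPM with sgDDX3, against 33.7 and 33.9 CPM with sgGal4 (log2 difference -0.76 ± 0.13, adjusted p = 0.000381), and its near-identical copy HBA2 at 15.8 and 12.5 CPM with sgDDX3, against 23.3 and 24.1 CPM with sgGal4 (log2 difference -0.75 ± 0.13, adjusted p = 0.000406). HBE1, embryonic epsilon-globin, was at 0.934 and 0.452 CPM with sgDDX3, against 3.08 and 3.98 CPM with sgGal4 (log2 difference -2.37 ± 0.36, adjusted p = 0.00012). HBD, delta-globin, was at 20.5 and 14.8 CPM with sgDDX3, against 11.8 and 9.50 CPM with sgGal4 (log2 difference 0.77 ± 0.15, adjusted p = 0.00154), a call lost without sgGal4 replicate 2. Alpha and epsilon chains were thus lower and delta higher. Set beside day 0, the median globin at day 14 stood at 0.41 with sgGal4 and at -0.30 with sgDDX3. Heme synthesis genes fell in 23.1%, beside 6.18% of all tested genes. Of 13 heme synthesis genes 0 rose and 3 fell (1 rose without sgDDX3 replicate 1), among them ALAS2, the rate-limiting enzyme of erythroid heme synthesis, at 87.0 and 88.2 CPM with sgDDX3, against 133 and 138 CPM with sgGal4 (log2 difference -0.63 ± 0.07, adjusted p = 8.1e-06). In the red cell membrane RHAG, the Rh-associated glycoprotein, was at 40.7 and 43.4 CPM with sgDDX3, against 59.4 and 64.3 CPM with sgGal4 (log2 difference -0.56 ± 0.09, adjusted p = 0.000186). Genes of the red cell membrane and skeleton rose in 25% and fell in 16.7%. RHAG fell, while ADD2 of the membrane skeleton rose. In the list of both 6 of 24 rose (3 without sgGal4 replicate 2) and 4 fell (2 without sgGal4 replicate 1, 1 without sgGal4 replicate 2 and 2 in DESeq2).

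Of the regulators of erythroid genes 28.6% rose, beside 8.44% of all tested genes. The share that fell, 9.52%, was near the 6.18% of all tested genes. Of 21 erythroid transcription factors and cofactors 6 rose and 2 fell (median 0.09, or 0.03 without sgDDX3 replicate 1 and 0.04 without sgGal4 replicate 2); 3 rose without sgGal4 replicate 1 and 2 without sgGal4 replicate 2, and 1 and 0 fell in those fits, with 0 also without sgDDX3 replicate 2. TCF3, the E-protein that pairs with TAL1, was at 506 and 418 CPM with sgDDX3, against 322 and 294 CPM with sgGal4 (log2 difference 0.59 ± 0.09, adjusted p = 7.3e-05). Of 12 CoREST complex genes 5 rose and 1 fell (median 0.19); 2 rose without sgGal4 replicate 1 and 3 without sgGal4 replicate 2, and none fell without any 1 of the 4 libraries. CoREST complex genes rose in 41.7% and fell in 8.33%, beside 8.44% and 6.18% of all tested genes. Besides RCOR2, KDM1A, the demethylase LSD1, was at 318 and 303 CPM with sgDDX3, against 241 and 230.5 CPM with sgGal4 (log2 difference 0.40 ± 0.07, adjusted p = 0.000327). For iron, the exporter SLC40A1, ferroportin, was at 118 and 125 CPM with sgDDX3, against 80.2 and 86.0 CPM with sgGal4 (log2 difference 0.54 ± 0.07, adjusted p = 3.9e-05), and the transferrin receptor TFRC at 795 and 794 CPM with sgDDX3, against 647 and 645 CPM with sgGal4 (log2 difference 0.30 ± 0.07, adjusted p = 0.00389). Both rose, while TF fell.

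A part of the growth-signal genes fell. Immediate early genes rose in 4.17% and fell in 41.7%, and genes of BCR-ABL and STAT5 signalling in 26.3% and 26.3%. The shares of all tested genes were 8.44% and 6.18%. Of 24 immediate early genes, MYC included, 1 rose and 10 fell (median -0.12, or -0.28 without sgGal4 replicate 2); 6 fell without sgDDX3 replicate 1 and 5 without sgGal4 replicate 1, and 2 rose without sgDDX3 replicate 2 and 0 when either sgGal4 replicate was left out. MYC was at 288 and 278 CPM with sgDDX3, against 458 and 414 CPM with sgGal4 (log2 difference -0.62 ± 0.07, adjusted p = 6.4e-06). EGR1, a zinc finger factor induced by ERK signalling, was at 74.7 and 64.8 CPM with sgDDX3, against 140.4 and 122 CPM with sgGal4 (log2 difference -0.90 ± 0.09, adjusted p = 9.7e-07). STAT5 targets that inhibit cytokine signalling fell: CISH was at 119 and 122 CPM with sgDDX3, against 202 and 190.3 CPM with sgGal4 (log2 difference -0.70 ± 0.07, adjusted p = 1.1e-06) and SOCS3 at 27.3 and 23.9 CPM with sgDDX3, against 39.5 and 40.0 CPM with sgGal4 (log2 difference -0.64 ± 0.10, adjusted p = 0.000116). The control libraries of these 4 genes all exceeded the sgDDX3 libraries. Mean CPM of CISH at day 0 and day 14 was 101 and 196 with sgGal4, and 105 and 121 with sgDDX3. For MYC the means were 377 and 436 with sgGal4, and 359 and 283 with sgDDX3. ABL1, whose counts can include those of the fusion of this line, was at 467 and 429 CPM with sgDDX3, against 339 and 336 CPM with sgGal4 (log2 difference 0.41 ± 0.07, adjusted p = 0.000308), and BCR at 311 and 283 CPM with sgDDX3, against 227 and 227 CPM with sgGal4 (log2 difference 0.39 ± 0.07, adjusted p = 0.0008). Over the whole list of BCR-ABL and STAT5 signalling 5 of 19 rose and 5 fell, 3 and 3 when either sgGal4 replicate was left out, and 3 fell without sgDDX3 replicate 1.

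Of 27 tested Wnt pathway genes 7 rose and 0 fell (25.9% and 0%, beside 8.44% and 6.18% of all tested genes). Their median log2 difference was 0.19. DVL1 and DVL3, Dishevelled proteins that relay the Wnt signal, were at 164 and 137 CPM with sgDDX3, against 90.2 and 94.1 CPM with sgGal4 (log2 difference 0.71 ± 0.09, adjusted p = 1.5e-05) for DVL1 and at 237 and 213 CPM with sgDDX3, against 152 and 160.4 CPM with sgGal4 (log2 difference 0.52 ± 0.07, adjusted p = 6.1e-05) for DVL3. CSNK1E, the casein kinase 1 isoform that DDX3X has been reported to bind, was at 117 and 109 CPM with sgDDX3, against 87.4 and 88.2 CPM with sgGal4 (log2 difference 0.36 ± 0.08, adjusted p = 0.00254). MAP4K4, a kinase upstream of JNK, was at 387 and 349 CPM with sgDDX3, against 203 and 173 CPM with sgGal4 (log2 difference 0.97 ± 0.08, adjusted p = 1.9e-07). In all 4 the groups were apart, which their choice by the smallest p favours. None of the 26 members tested in footprints rose there and 1, MAP4K4, fell, and their median footprint difference was -0.08.

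Further groups moved in part. Endoplasmic reticulum chaperones and unfolded protein response genes rose in 33.3% and fell in 4.76%. Proteasome genes did so in 0% and 29%, and mitochondrially encoded mRNAs in 38.5% and 0%. The shares of all tested genes were 8.44% and 6.18%. Of 21 endoplasmic reticulum chaperones and unfolded protein response genes 7 rose and 1 fell, with 3 rising without sgDDX3 replicate 1, 2 without sgGal4 replicate 1 and 1 without sgGal4 replicate 2, and 4 falling without sgDDX3 replicate 2. The chaperone HYOU1 was at 268 and 223 CPM with sgDDX3, against 188 and 185 CPM with sgGal4 (log2 difference 0.40 ± 0.08, adjusted p = 0.00261) and at 0.26 without sgDDX3 replicate 1. The transcription factor XBP1 was at 126 and 146 CPM with sgDDX3, against 213 and 204 CPM with sgGal4 (log2 difference -0.62 ± 0.08, adjusted p = 1.5e-05). HYOU1 was higher and XBP1 lower, with no overlap. Of 31 proteasome genes 0 rose and 9 fell (median -0.21), 3 without sgGal4 replicate 1 and 2 without sgGal4 replicate 2. Of 13 mitochondrially encoded mRNAs 5 rose and 0 fell (3 and 5 without sgDDX3 replicate 2, and 3 and 0 without sgGal4 replicate 1), with a median of 0.14 that was 0.32 without sgDDX3 replicate 1, 0.04 without sgGal4 replicate 1, 0.27 without sgGal4 replicate 2 and -0.10 without sgDDX3 replicate 2, the library with 7.19% of its counts in mitochondrial genes. The imprinted genes DLK1, a Notch-like fetal antigen, at 11.2 and 12.2 CPM with sgDDX3, against 3.75 and 3.32 CPM with sgGal4 (log2 difference 1.76 ± 0.22, adjusted p = 1.9e-05), and PEG10, a gene of retroviral origin, at 16.3 and 18.4 CPM with sgDDX3, against 8.56 and 10.6 CPM with sgGal4 (log2 difference 0.81 ± 0.13, adjusted p = 0.000217), rose where H19 fell. In the surface list ITGA4, an integrin chain, was at 7.73 and 9.13 CPM with sgDDX3, against 3.65 and 4.6 CPM with sgGal4 (log2 difference 0.97 ± 0.18, adjusted p = 0.000695) and IL18R1 at 16.7 and 18.7 CPM with sgDDX3, against 8.37 and 8.22 CPM with sgGal4 (log2 difference 1.10 ± 0.16, adjusted p = 5.9e-05), while 1 myeloid marker, CD33, was at 32.1 and 37.2 CPM with sgDDX3, against 53.7 and 53 CPM with sgGal4 (log2 difference -0.62 ± 0.09, adjusted p = 4.0e-05).

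Few genes differed between the guides at day 0, and about as many at day 3 as at day 14. At day 0, 1 gene passed in edgeR (0.00547%), with 832 at an unadjusted p under 0.05 of 18287. At day 3, 2574 genes passed (14.1%), with 7.68% rising and 6.39% falling, and 1414 passed at both days, 52.9% of the day 14 genes and 54.9% of the day 3 genes, of which 1408 had the same sign. The libraries of the 2 days are separate. Of the 1543 genes that rose at day 14, 895 had risen and 2 had fallen at day 3, and of the 1131 that fell, 513 had fallen and 4 had risen.

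The guide difference itself differed between day 14 and day 3 in 30 genes (0.164%, of which 0.082% upward and 0.082% downward), and in 11 without sgGal4 replicate 1, 16 without sgGal4 replicate 2, 60 without sgDDX3 replicate 1 and 339 without sgDDX3 replicate 2. EIF5B stood at 0.98 at day 14 and at -0.04 at day 3. MCM2 stood at 0.70 and -0.42, and PEG10 at 0.81 and -0.53 (all log2 differences, day 14 and then day 3). Their differences between days were 1.02 ± 0.15 for EIF5B, 1.12 ± 0.17 for MCM2 and 1.34 ± 0.19 for PEG10, with adjusted p-values of 0.00184, 0.00353 and 0.00173. The proliferation genes TOP2A (0.23 at day 14, -0.43 at day 3) and ATAD2 (0.52 and -0.22), chosen after their values were seen, also passed this test, though not without sgGal4 replicate 1. By list, 22 of 30 mitosis genes and 23 of 34 DNA replication genes had fallen at day 3. Histone H2B genes had medians of -0.39 at day 14 and -0.44 at day 3, while the stress regulators stood at -0.45 and -0.15. Between day 14 and day 0 the guide difference changed in 816 genes (4.46%, of which 2.66% upward and 1.8% downward), and in 342 to 1581 when 1 day 14 library was left out.

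Ribosome footprints of the same day, from separate libraries tested alone, had the sign of the RNA difference in most genes that passed in RNA. In footprints 417 of 19780 genes rose and 255 fell (2.11% and 1.29%, together 3.4%). Of 1498 genes with higher RNA that were tested there, 205 rose and 16 fell, and 76% had a footprint difference above 0. Of 1092 genes with lower RNA, 1 rose and 136 fell, and 10.9% had one above 0. The footprint counts rested on few libraries: 143 to 497 genes passed when 1 library was left out, of 672. ADD2 (1.77), RRBP1 (1.43), DYSF (1.36), HLA-C (1.18), OAS3 (3.26), EIF4G1 (1.16), EIF5B (1.90), MCM2 (1.69) and DLK1 (1.57) rose in footprints under every alternative, and H19 (-1.71), TMSB4X (-1.01) and SOX5 (-1.34) fell. For H19, a non-coding RNA, footprints need not be translation.

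Some of these raised RNAs had no such change in footprints. ZNF628 had a footprint difference of -0.11 ± 0.16, adjusted p = 0.78. RCOR2 was at 0.18 ± 0.19, adjusted p = 0.686, and AP3D1 at -0.02 ± 0.09, adjusted p = 0.944. These values miss the test, which does not show that the footprints were equal, and the difference between RNA and footprints was not tested here. FCGR2A, whose RNA fell, was at 0.27 ± 0.23, adjusted p = 0.617 in footprints. LMO4 rose by 1.70 in RNA and in footprints also (0.70 ± 0.13, adjusted p = 0.0115), a call lost without sgDDX3 replicate 2 or sgGal4 replicate 2. Of the 16 genes with higher RNA and lower footprints, MAP4K4 had the largest RNA difference, and its footprints were at -0.43 ± 0.09, adjusted p = 0.0237, a call lost when either sgDDX3 replicate or sgGal4 replicate 1 was left out. EIF4EBP2, a second repressor of eIF4E, was another, with RNA at 0.35 ± 0.07, adjusted p = 0.000972 and footprints at -0.49 ± 0.10, adjusted p = 0.0189, the footprint call lost without sgDDX3 replicate 1 or sgGal4 replicate 1.

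**Figure D5:**
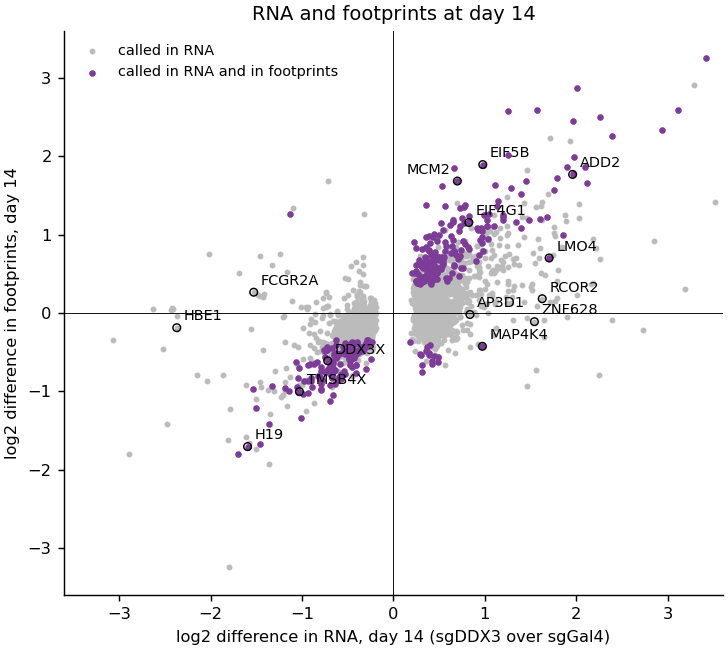
Log2 difference of sgDDX3 over sgGal4 at day 14 in footprints (y axis) against RNA (x axis) for genes that rose or fell in RNA; purple genes also passed in footprints and some named genes are circled, with 3 genes outside the plotted range. H19 and TMSB4X lie low on both axes, ADD2 high on both, and MAP4K4 right of and below 0.

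Genes that rose at day 14 had a longer median span in the genome than genes that fell, given as a description with no test. Among protein-coding genes the median span from start to end was 44.7 kb for those that rose (quartiles 16.9 and 98.9 kb), 21 kb for those that fell (8.32 and 47.9 kb) and 28.2 kb for those not called. In 5 equal classes of span, from the shortest (up to 9.28 kb) to the longest (84.2 kb and more), 7.05%, 9.97%, 10.8%, 13.4% and 17.3% rose, and 10.5%, 8.27%, 8.02%, 6.65% and 4.66% fell. The order was the same at day 3 for genes that rose (5.84% in the shortest and 17.1% in the longest class). In footprints the shares that rose were 1.69%, 2.48%, 2.69%, 2.45% and 3.07% and those that fell 2.24%, 1.68%, 1.62%, 2.19% and 1.99%, so that neither kept 1 direction over the classes. The median log2 difference of the longest class was 0.05 in sgDDX3 replicate 1 and 0.11 in replicate 2, and that of the shortest 0.01 and -0.07. Protein-coding genes made up 95.7% of the annotated genes that rose and 87.9% of those that fell.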

How the data were processed

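The authors deposited raw counts of reads, as whole numbers for each gene, in 1 table for RNA and 1 for ribosome footprints. The tools STAR 2.7.5a, DESeq2, Bowtie2 2.4.1 and cutadapt 3.4 and the build GRCh38 are named, without role or order, per the submitters' processing notes. How reads were counted (tool, annotation, strand, reads that align to several places) is not given in the sources used here. Counts of overlapping, antisense and multi-copy genes are therefore uncertain. Of 58037 genes per table, 45 copies listed on the Y chromosome were left out.

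Differences were tested with edgeR 4.0.16 (R 4.3.3, limma 3.58.1), by its quasi-likelihood F-test with scaling by the trimmed mean of M values, the filter filterByExpr at a minimum count of 10 (18287 RNA and 19780 footprint genes kept) and Benjamini-Hochberg adjustment over all genes kept. All 12 libraries of an assay, in 6 groups of 2, shared 1 estimate of spread. DESeq2 1.42.0, other scalings, no filter, only the day 14 libraries, a replicate block and leaving out each library were the alternatives. Tables and figures used Python 3.11.15, pandas 2.3.3 and matplotlib 3.10.9. Coordinates and promoters are those of RefSeq on GRCh38.p14, and symbols were found for 41445 genes.

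Groups were taken from the sample titles. The named genes are DDX3X, the 15 highest and 15 lowest log2 differences among genes that passed with a symbol, at least 10 CPM and no overlap between groups, the 10 that gained and the 10 that lost most CPM, and up to 5 members of each of 56 gene lists with the smallest p. The members and the lists were chosen with earlier results of these data known. Y-linked genes are left out, and some further genes that the rule would name are not reported here. Limits from a count of 0 cover counting error only, because without molecular identifiers several reads can come from 1 molecule.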

Additional observations from a re-analysis of the deposited data

Results flagged for a closer look

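The difference between the guides was itself tested between days for the target and the 15 highest and 15 lowest genes, and values below are the day 14 log2 difference minus that of the other day, at an adjusted p under 0.05 in edgeR's quasi-likelihood test. Against day 3 it differed in 6 of 31 genes. It was greater at day 14 for DDX3X (1.57), LMO4 (0.81), SNHG12 (1.16) and HLA-C (0.84), and more negative for H19 (-0.67) and EHD2 (-0.78). Of these, DDX3X and LMO4 kept their call in all 10 alternatives, and the 4 others lost it without sgGal4 replicate 1.

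Against day 0 it differed in 30 of 31 genes, which were chosen for their day 14 difference. Among genes higher with sgDDX3 the values were 1.80 for ADD2, 1.57 for LMO4, 1.55 for RCOR2, 1.75 for ZNF628, 1.08 for TSPOAP1, 1.5 for SNHG12, 1.20 for ZDHHC14, 1.45 for NPTXR, 1.5 for CDR2L, 1.05 for HLA-C, 1.00 for PPFIA4, 0.94 for RRBP1, 1.14 for DYSF and 1.19 for AMIGO1. Among genes lower with sgDDX3 they were -0.51 for DDX3X, -1.85 for AKNA, -1.42 for H19, -1.48 for FCGR2A, -1.53 for ASS1, -1.43 for UNC5B, -1.40 for TF, -0.92 for IGFBP2, -1.05 for MUC4, -0.98 for EFHD1, -1.13 for ANXA3, -0.93 for EHD2, -0.87 for TMSB4X and -0.98 for SOX5. For ribosomal RNA of the mitochondrion the values were -1.91 for MT-RNR1 and -1.90 for MT-RNR2. RTL6 was the gene of the 31 that did not pass.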

How the results depend on the processing

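Of 247 named genes that passed at day 14, 153 passed in all 11 alternatives, 94 lost the call in at least 1, and none changed sign. The count of 2674 genes was 1495 with only the day 14 libraries, of which 1489 were shared, and 1076 to 3201 when 1 library was left out. The cause was not tested, beyond the fewer libraries in each of these fits. In DESeq2 it was 2184, with 2152 shared. Without a filter 2659 genes passed, 48.1% of them higher, against 57.7% with it. For DDX3X the log2 difference was -0.93 to -0.54 when 1 library was left out. The change of the guide difference was called in 342 to 1581 genes against day 0 and in 11 to 339 against day 3 when 1 library was left out, and in 119 against day 3 with no filter. In footprints 1221 genes passed with no filter and 143 to 497 when 1 library was left out, against 672. The labels do not say that a replicate number pairs libraries. Replicate differences of the 2 guides correlated at 0.354 at day 14, 0.196 at day 3 and -0.156 at day 0, so the sign was not common to all days. At day 14 the replicates of the 2 guides thus shared a part of their differences, whose source was not tested. The main fit held no replicate term. With a replicate block 2405 genes passed at day 14, 676 for day 14 minus day 0, 22 for day 14 minus day 3 and 735 in footprints, and DDX3X was at -0.73. Depth limits calls in low genes, since a count of 0 allows 0.256 to 0.271 CPM with sgDDX3 and 0.0991 to 0.289 CPM with sgGal4.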
